A study of Mus musculus with 6 samples.

Results

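Voltage-gated sodium channel genes were measured by RNA sequencing in mouse dorsal root ganglia 24 h after kidney surgery. These ganglia lie beside the spinal cord and house the cell bodies of sensory neurons. The 9 genes were taken by symbol from a deposited table of 57180 genes: the alpha subunits Scn1a, Scn3a, Scn8a, Scn9a, Scn10a and Scn11a and the beta subunits Scn2b, Scn3b and Scn4b. All 9 were found, and all 9 passed the filter on low counts that left 16346 genes to test. The 3 mice with renal ischemia-reperfusion (I/R) lost blood flow to the left kidney through a clamp on its pedicle for 28 min, regained it when the clamp came off, and had the right kidney taken out. The 3 sham mice went through the same surgery with no clamp, although the labels do not state removal of the right kidney for them separately. All 6 mice are labelled WT and were anesthetized with Zoletil, and ganglia were taken from thoracic level 8 to lumbar level 2. Strain, age and sex are not given in the labels. The labels give 3 mice and 3 libraries a group and do not say that any were pooled. The libraries held 20234079, 20931650 and 22010227 expected counts in I/R 1 to 3 and 20390927, 20124324 and 19092650 in sham 1 to 3.

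A sodium channel is built around 1 alpha subunit, which forms the pore, senses the membrane voltage and inactivates. Beta subunits are single-pass membrane proteins with an immunoglobulin fold that change the gating and surface level of the alpha subunit and also act in cell adhesion. Sensory neurons combine channels that tetrodotoxin blocks, encoded by Scn1a, Scn3a, Scn8a and Scn9a among others, with the resistant channels encoded by Scn10a and Scn11a, which are largely restricted to small-diameter neurons. The mix of these channels sets how easily a nociceptor, a pain-sensing neuron, fires.

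None of the 9 genes was called different between I/R and sham ganglia at an adjusted p under 0.05 in edgeR's quasi-likelihood test, where 1.15% of all tested genes were called (0.722% higher and 0.428% lower in I/R). DESeq2 and limma-voom also called 0 of the 9. In edgeR's test 3 members, Scn2b, Scn9a and Scn3a, had an unadjusted p under 0.05, a condition met by 10.5% of all tested genes. Scn2b lay lower in I/R, while Scn9a and Scn3a lay higher. The I/R and sham values of 2 members, Scn9a and Scn2b, did not overlap, as for 17.1% of tested genes. The median log2 fold change of the 9 was 0.0024, with 5 above 0 and 4 below, and that of all tested genes was 0.00013, with 8177 of 16346 above 0. Fold changes are I/R over sham, and their 95% intervals are unadjusted intervals for single genes. Over the 9 members these intervals ran from a fold of 0.705 to a fold of 1.95, so none reached a doubling, and 3 of the 9 did not hold a fold of 1. Because whole ganglia were sequenced, fewer cells of a type and less RNA per cell cannot be told apart.

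**Figure D1:**
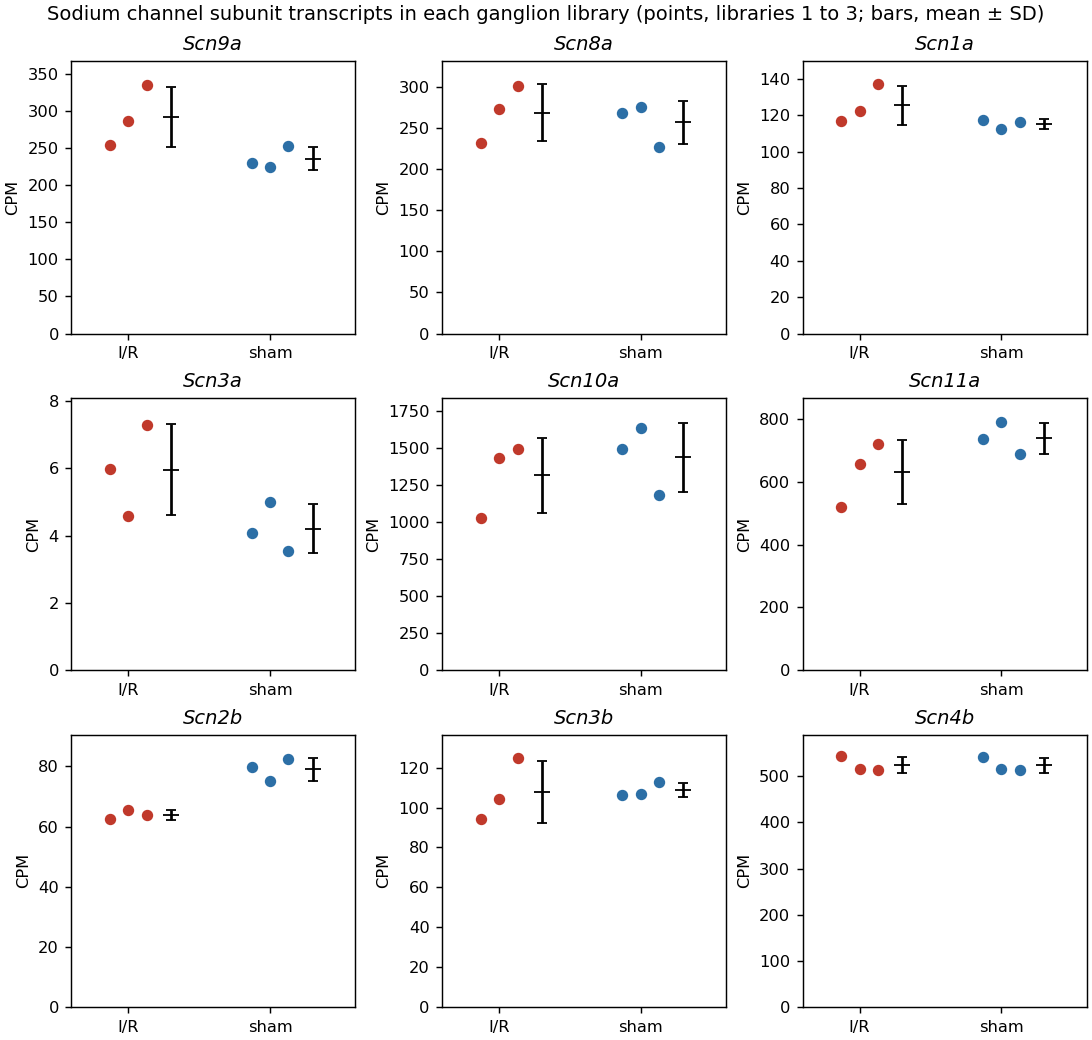
Level of each of the 9 sodium channel genes in each library, in CPM (counts scaled to library size) on a linear axis from 0, I/R left of sham, with points for libraries 1 to 3 and bars for mean ± SD. The 3 I/R libraries lie all above the sham libraries for Scn9a and all below them for Scn2b, and the groups overlap for the other members.

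Levels of different genes were compared as CPM divided by the deposited gene length in kb, averaged over the 6 libraries. The resistant channel gene Scn10a, which encodes the channel that carries most of the upstroke of the nociceptor action potential, was highest at 234 CPM per kb. Scn11a, whose channel carries a persistent current near the resting potential, followed at 117 CPM per kb, and Scn4b at 105. The library ranges of Scn11a and Scn4b overlapped, so these neighbours were not separated. Below a 3.93-fold step came Scn9a at 26.7, Scn3b at 26.1 and Scn8a at 23.0 CPM per kb, whose ranges overlapped between neighbours. Within libraries, Scn3b stood above Scn8a in 6 of 6, and Scn9a above Scn3b in 3 of 6. Scn2b at 15.4 and Scn1a at 14.4 CPM per kb overlapped as well. Scn3a stood last at 0.595 CPM per kb, with no overlap with Scn1a. Among tested genes, 98.7% had a lower level per length than Scn10a, against 13.1% for Scn3a.

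**Figure D2:**
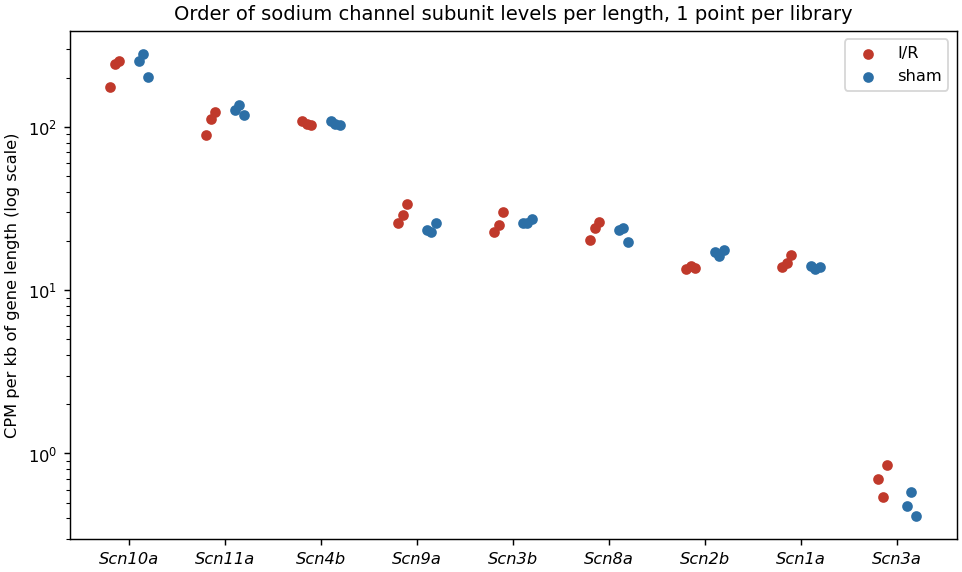
Level per length of the 9 genes on a log axis, in CPM per kb, ordered by the mean over 6 libraries, with 1 point per library and I/R left of sham. Scn10a stands alone at the top with a mean of 234 CPM per kb, and Scn3a alone at the bottom with 0.595.

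Among the alpha subunits that tetrodotoxin blocks, Scn9a showed the clearest separation between the groups. Its channel amplifies small depolarizations in nociceptors, and loss of the human gene abolishes pain. Scn9a stood at 254, 286 and 334 CPM in I/R 1 to 3, against 229, 224 and 253 CPM in sham 1 to 3. Every I/R value lay above every sham value, as for 9.23% of tested genes, but the gap between the nearest values, I/R 1 and sham 3, was small. Means were 291 ± 40.2 CPM in I/R and 235 ± 15.3 CPM in sham (SD, n = 3 each). The log2 fold change was 0.31 ± 0.11 (SE), a fold of 1.24 with a 95% interval of 1.04 to 1.48, and did not pass (adjusted p = 0.36 in edgeR's test). Without I/R 3, the highest library, it was 0.20, and without I/R 1 it was 0.40 (adjusted p 0.66 and 0.18).

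Scn8a encodes the main channel of the nodes of Ranvier in myelinated axons. It stood at 232, 273 and 300.3 CPM in I/R 1 to 3, against 268, 275 and 227 CPM in sham 1 to 3. The groups overlapped, with 1 low library in each, and the log2 fold change was 0.06 ± 0.12 (adjusted p = 0.89 in edgeR's test). Its direction turned without I/R 3 or sham 3, with values of -0.023 and -0.017. Scn1a, whose channel serves medium and large sensory neurons, stood at 117, 122 and 138 CPM in I/R 1 to 3, against 117, 112 and 116 CPM in sham 1 to 3. I/R 1 lay within the sham range and the other I/R libraries above it, and the log2 fold change was 0.12 ± 0.09 (adjusted p = 0.71 in edgeR's test).

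Scn3a encodes a channel of embryonic neurons that is known from rats to return in sensory neurons whose axons are cut. It stood at 5.98, 4.60 and 7.30 CPM in I/R 1 to 3, against 4.08, 5.002 and 3.55 CPM in sham 1 to 3. I/R 1 and I/R 3 stood above every sham library, but I/R 2 lay below sham 2, so the groups overlapped. At a log2 fold change of 0.50 ± 0.21 it had the largest difference of the 9, a fold of 1.42 with a 95% interval of 1.03 to 1.95 (adjusted p = 0.43 in edgeR's test). Without I/R 3 the log2 value was 0.33, and without sham 2 it was 0.64. Against sham 2 alone it was 0.23, and with the summed level of skeletal muscle genes as a covariate 0.17. In I/R ganglia its mean level per length was 0.697 CPM per kb, against 29.6 CPM per kb for Scn9a in the same ganglia.

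Both genes of resistant channels lay lower in I/R on average, with wide spread between I/R mice. Scn10a stood at 1026, 1433 and 1490.4 CPM in I/R 1 to 3, against 1495, 1634 and 1181 CPM in sham 1 to 3. I/R 1 was the lowest of the 6 libraries and the other I/R libraries lay within the sham range. The log2 fold change was -0.13 ± 0.16 (adjusted p = 0.83 in edgeR's test), and it turned to 0.025 without I/R 1. Scn11a stood at 519.7, 656 and 718 CPM in I/R 1 to 3, against 735, 789 and 689 CPM in sham 1 to 3. Only I/R 3 reached into the sham range, and the log2 fold change was -0.23 ± 0.12, a fold of 0.855 with a 95% interval of 0.707 to 1.03 (adjusted p = 0.58 in edgeR's test). Without I/R 1 it was -0.10.

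The mix of alpha subunits was described within each library as shares of the summed level per length of the 6 alpha members. Scn10a made up 53.8%, 57.5% and 55.8% of it in I/R 1 to 3, against 57.6%, 58.7% and 53.0% in sham 1 to 3, with overlap between the groups. The Scn11a share was 27.4%, 26.5% and 27.1% in I/R 1 to 3, against 28.5%, 28.5% and 31.2% in sham 1 to 3, so all I/R values were lower. For Scn9a the share was 7.96%, 6.84% and 7.47% in I/R 1 to 3, against 5.27%, 4.80% and 6.78% in sham 1 to 3, so all I/R values were higher, with sham 3 just below I/R 2. The Scn8a share was 6.26%, 5.62% and 5.78% in I/R 1 to 3, against 5.30%, 5.08% and 5.23% in sham 1 to 3. That of Scn3a was 0.216%, 0.127% and 0.188% in I/R 1 to 3, against 0.108%, 0.123% and 0.110% in sham 1 to 3. Both shares were also higher in every I/R library, although the CPM of both genes overlapped between the groups. Shares of a library add up to the whole, so a lower level of Scn10a or Scn11a raises the others. I/R 1 had the highest Scn8a share, 6.26%, but the lowest Scn8a level of the I/R libraries, 232 CPM. The Scn1a share overlapped, at 4.29%, 3.44% and 3.61% in I/R 1 to 3, against 3.17%, 2.82% and 3.67% in sham 1 to 3. The level per length of Scn11a was 3.45, 3.87 and 3.63 times that of Scn9a in I/R 1 to 3, against 5.41, 5.94 and 4.60 times in sham 1 to 3. These ratios averaged 3.65 ± 0.211 in I/R and 5.32 ± 0.675 in sham (SD, n = 3 each) and did not overlap. Scn10a and Scn11a together stood at 4.39, 5.28 and 4.92 times the sum of Scn1a, Scn8a and Scn9a in I/R 1 to 3, against 6.27, 6.86 and 5.37 times in sham 1 to 3. The other alpha ratios overlapped between the groups. Scn10a stood at 6.76, 8.399 and 7.47 times Scn9a in I/R 1 to 3, against 10.9, 12.2 and 7.83 times in sham 1 to 3. It stood at 1.96, 2.17 and 2.06 times Scn11a in I/R 1 to 3, against 2.02, 2.06 and 1.70 times in sham 1 to 3. In all, 7 ratios were computed, of which 3 did not overlap between the groups. Shares and ratios were computed over members and are given without a test, and the pairs of genes were chosen with earlier results of these data known.

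**Figure D3:**
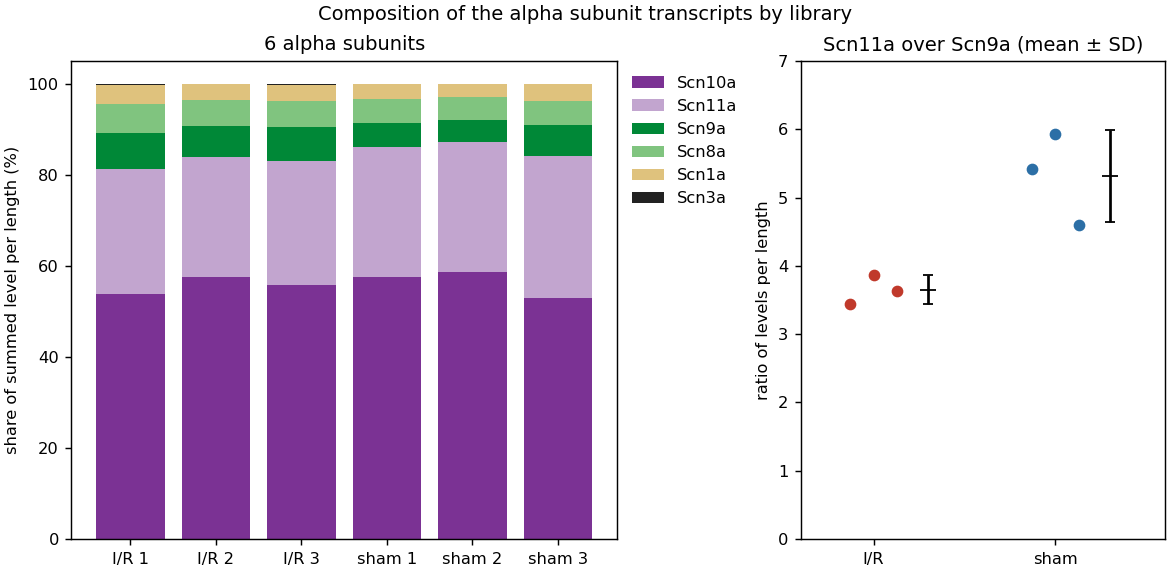
Left, shares of the summed level per length of the 6 alpha subunit genes in each library, in percent; right, the ratio of Scn11a to Scn9a level per length in each library, with bars for mean ± SD. The ratio lies between 3.45 and 3.87 in I/R libraries and between 4.60 and 5.94 in sham libraries.

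The beta subunit gene Scn2b was the member of smallest p. Its protein is joined to the alpha subunit by a disulfide bond and supports the surface level of tetrodotoxin-sensitive channels. Scn2b stood at 62.4, 65.7 and 63.7 CPM in I/R 1 to 3, against 79.7, 75.0 and 82.5 CPM in sham 1 to 3. Every I/R value lay below every sham value, as for 7.83% of tested genes, and both groups were tight, with means of 63.9 ± 1.63 CPM in I/R and 79.1 ± 3.79 CPM in sham (SD, n = 3 each). The log2 fold change was -0.31 ± 0.09, a fold of 0.808 with a 95% interval of 0.705 to 0.927, and did not pass (unadjusted p = 0.0062, adjusted p = 0.19 in edgeR's test). Of 16346 tested genes it ranked 521 by p.

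Scn4b, whose protein is also disulfide-linked and promotes resurgent sodium current, had the smallest fold change of the 9. It stood at 545, 516 and 513 CPM in I/R 1 to 3, against 542, 516 and 513 CPM in sham 1 to 3. The groups covered nearly the same range, and the fold change was 1.00 with a 95% interval of 0.882 to 1.14 (adjusted p = 0.99 in edgeR's test). The log2 value of 0.0024 turned below 0 without I/R 1, I/R 2, sham 2 or sham 3, and with RLE or upper-quartile scaling. Scn3b, whose protein binds the alpha subunit without a covalent bond, stood at 94.2, 104 and 125 CPM in I/R 1 to 3, against 106, 107 and 113 CPM in sham 1 to 3. The I/R libraries lay on both sides of the sham range, with means of 108 ± 15.6 CPM in I/R and 109 ± 3.58 CPM in sham, and the log2 fold change was -0.012 ± 0.11 (adjusted p = 0.98 in edgeR's test). It turned to 0.077 without I/R 1 and to 0.015 without sham 3. Per length, Scn2b stood at 0.123, 0.136 and 0.133 times Scn4b in I/R 1 to 3, against 0.157, 0.156 and 0.172 times in sham 1 to 3, with no overlap. Scn3b stood at 0.208, 0.243 and 0.292 times Scn4b in I/R 1 to 3, against 0.236, 0.249 and 0.264 times in sham 1 to 3, with overlap. The 3 beta members together stood at 0.448, 0.337 and 0.323 times the 6 alpha members in I/R 1 to 3, against 0.343, 0.307 and 0.390 times in sham 1 to 3, also with overlap.

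**Figure D4:**
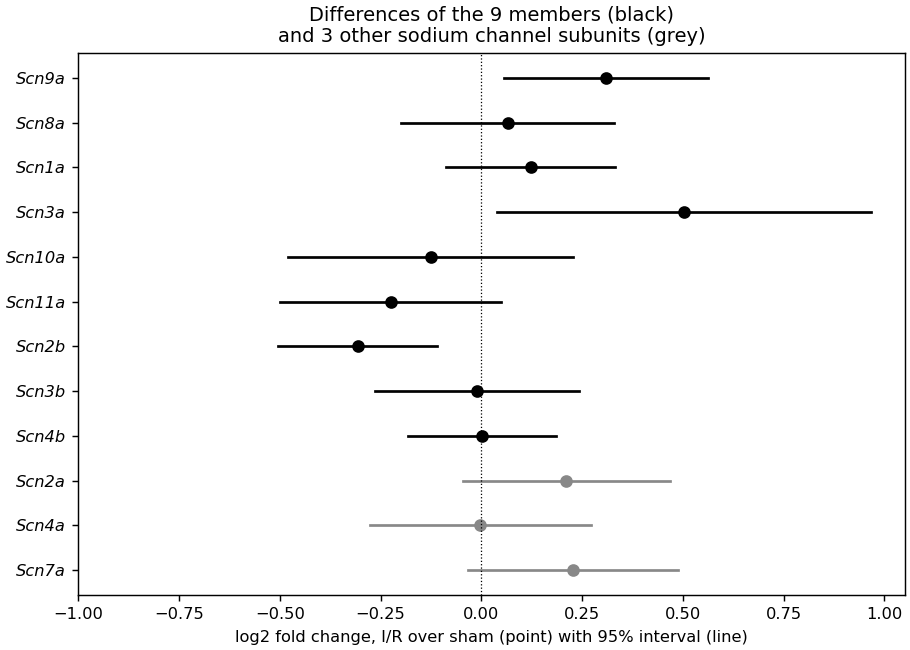
Log2 fold change, I/R over sham, of the 9 members in black and of 3 other sodium channel subunits in grey, each with its unadjusted 95% interval. The intervals of Scn9a, Scn3a and Scn2b do not cross 0, and the others do.

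In the RefSeq annotation of GRCm38.p6, Scn2b and Scn4b are neighbours on chromosome 9, with no protein-coding gene between them, and Scn10a and Scn11a are neighbours elsewhere on that chromosome. Scn1a and Scn9a are neighbours on chromosome 2, followed by Scn7a. RefSeq promoter sequences of that build were at hand for 7 of the 9 members, in 8 entries because Scn8a has a pair of start sites, and Scn3a and Scn3b had no entry. The 250 bases before the start site are printed for the neighbouring pair Scn2b and Scn4b, of which the first had the smallest p of the 9 members and the second the largest, and for Scn9a, the other member whose groups did not overlap. Capitals mark CpG dinucleotides. The first lies at chr9:45117626-45117875 on the plus strand, the second at chr9:45138374-45138623 on the plus strand, and the last at chr2:66634963-66635212 on the minus strand.
Scn2b: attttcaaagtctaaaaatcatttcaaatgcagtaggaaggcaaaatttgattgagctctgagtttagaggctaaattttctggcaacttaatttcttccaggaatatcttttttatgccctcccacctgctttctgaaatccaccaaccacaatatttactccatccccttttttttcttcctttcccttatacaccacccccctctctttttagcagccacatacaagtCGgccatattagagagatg
Scn4b: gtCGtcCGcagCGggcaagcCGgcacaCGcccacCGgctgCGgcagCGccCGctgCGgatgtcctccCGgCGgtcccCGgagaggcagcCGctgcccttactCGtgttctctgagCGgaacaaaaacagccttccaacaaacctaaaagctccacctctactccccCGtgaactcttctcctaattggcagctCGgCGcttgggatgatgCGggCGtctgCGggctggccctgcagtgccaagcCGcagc
Scn9a: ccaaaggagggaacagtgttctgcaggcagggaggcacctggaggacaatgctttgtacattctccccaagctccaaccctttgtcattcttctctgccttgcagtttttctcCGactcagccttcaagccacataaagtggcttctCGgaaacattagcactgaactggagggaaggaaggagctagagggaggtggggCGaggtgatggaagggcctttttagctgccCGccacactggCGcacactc
The Scn2b window held 1 CpG and the Scn4b window 23, where the median of 32851 promoter entries was 6. Of those entries, 7.87% held fewer CpG than Scn2b and 86.7% fewer than Scn4b, while Scn9a held 5. The GC content was 38.4% for Scn2b, 66.0% for Scn4b and 54.4% for Scn9a, against a median of 52.4%. The AP-1 motif TGANTCA, the CRE motif TGACGTCA and the TATA box TATAAA were searched on both strands of the same 250 bases, since Atf3 and Jun, on the axon injury list, encode factors that bind the first pair. None of the 8 member entries held any of the 3, against 6.75%, 1.55% and 12.4% of all entries. A match or its absence describes letters only.

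The libraries differed in how they represented long and short genes, with values that overlapped between the groups. The median deviation of a library from each gene's mean over the 6 libraries, for the 1741 tested genes over 6 kb, was -0.10, 0.032 and 0.15 on the log2 scale in I/R 1 to 3, against -0.0090, 0.0091 and -0.062 in sham 1 to 3. For the 1211 tested genes under 1 kb it was 0.27, -0.10 and -0.33 in I/R 1 to 3, against -0.012, -0.088 and 0.31 in sham 1 to 3. I/R 1 and sham 3 thus held more of the short genes, and I/R 3 more of the long ones. The deposited lengths of the members ran from 4150 bases for Scn3b to 11436 bases for Scn8a. In 6 of the 9, I/R 3 was the highest and I/R 1 the lowest of the I/R libraries (all but Scn3a, Scn2b and Scn4b), against 25.0% of all tested genes and 50.1% of those over 6 kb. Of those with the pattern, Scn10a (5877 bases), Scn11a (5837) and Scn3b (4150) are under 6 kb, so the last share is not matched. Scn3a, at 8550 bases, lacked the pattern. Scn4b had the opposite order. A fit added after seeing the data removed each library's trend with length, and its calls were 0 of the 9 members and 288 of all tested genes. In it the log2 fold change was 0.24 ± 0.08 for Scn9a (adjusted p = 0.25), -0.27 ± 0.09 for Scn11a (0.22) and -0.33 ± 0.08 for Scn2b (0.0896), by edgeR's test. The main values were 0.31 for Scn9a, -0.23 for Scn11a and -0.31 for Scn2b. Every member had a lower log2 fold change in this fit than in the main one.

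**Figure D5:**
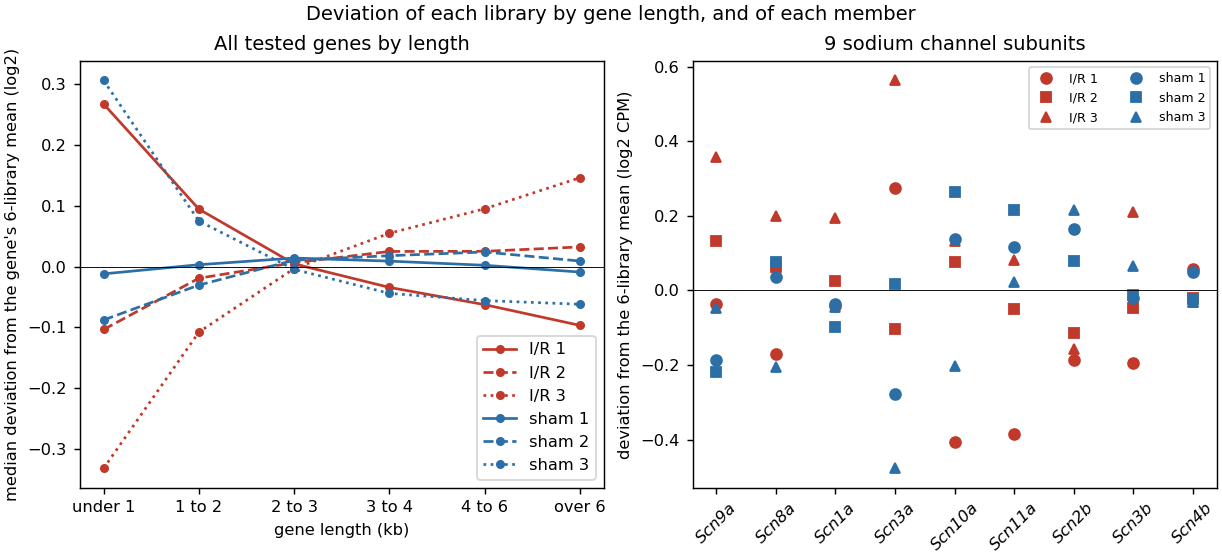
Left, median deviation of each library from each gene's 6-library mean on the log2 scale, for tested genes grouped by length in kb; right, the deviation of each of the 9 members in each library, in log2 CPM. I/R 1 and sham 3 stand above 0 for short genes and below 0 for genes over 6 kb, and I/R 3 shows the opposite, with -0.33 and 0.15.

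Of 3 other alpha subunits, Scn7a, Scn2a and Scn4a, 0 passed in edgeR, in DESeq2 or in limma-voom. With no adjustment, 0 reached a p under 0.05 in edgeR. Scn7a, which encodes a sodium-sensing channel that voltage hardly opens, stood at 334, 357 and 429 CPM in I/R 1 to 3, against 311, 293 and 353 CPM in sham 1 to 3 (0.23 ± 0.12 on the log2 scale, adjusted p = 0.55 from edgeR). Its groups overlapped, with I/R 3 highest. Scn2a, a channel of central axons, averaged 14.3 ± 0.0537 CPM in I/R and 12.4 ± 1.11 CPM in sham, with all I/R values higher. Scn4a, the channel of skeletal muscle, averaged 13.9 ± 1.25 CPM in I/R and 13.9 ± 1.17 CPM in sham. The summed level of 10 skeletal muscle genes, by contrast, stood at 6.38 to 14.6 CPM in I/R and at 17.5 to 499 CPM in sham, with sham 1 and sham 3 high.

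Genes that act with sodium channels were counted over 4 lists chosen with earlier results known, and edgeR called 0 in each, as did DESeq2 and limma-voom. Over all tested genes, edgeR called 1.15%, and 10.5% had an unadjusted p under 0.05. Of 13 partners and trafficking genes, 6 lay above 0 and 7 below, with a median log2 fold change of -0.04, and 1 had an unadjusted p under 0.05. The smallest p there belonged to Tmem233, a membrane protein that associates with sodium channels, at 419 ± 13.1 CPM in I/R and 488 ± 18.1 CPM in sham (-0.22 ± 0.08, adjusted p = 0.37 in edgeR's test). Kif5b, a kinesin heavy chain that carries cargo along axons, followed at 0.18 ± 0.09. Tmem233 lay lower in every I/R library than in any sham library, whereas the values of Kif5b overlapped. Of 10 scaffold genes of nodes and initial segments, 7 lay above 0 (median 0.02) and 0 had an unadjusted p under 0.05, with Nrcam, a node adhesion molecule, at 0.24 ± 0.11 and Cntn1, a contactin, at 0.14 ± 0.10. Of 9 genes of the sodium pump and the sodium leak channel, 6 lay above 0 (median 0.06) and 1 had an unadjusted p under 0.05. Unc80, a subunit of the leak channel complex, had 0.26 ± 0.12 and Fxyd2, a modulator of the pump, -0.37 ± 0.20. Of 8 genes of the secretases that cut beta subunits, 4 lay above 0 and 4 below (median 0.02) and 0 had an unadjusted p under 0.05, with Aph1a at -0.14 ± 0.11 and Ncstn, the nicastrin gene, at 0.10 ± 0.09, both parts of gamma-secretase.

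Neuron markers were present in all 6 libraries. The 10 neuron-wide genes, among them Tubb3, Snap25 and Isl1, were detected in every library, and their sum stood at 8807 to 10102 CPM in I/R and 8917 to 9352 CPM in sham, with 0 called. Scaling every library to that sum left 0 of the 9 sodium channel genes called and put Scn9a at a log2 fold change of 0.26, Scn11a at -0.27 and Scn2b at -0.36. The highest of the 10 genes, Tubb3 (1868 bases) and Uchl1 (1177 bases), are shorter than any member. The sum was highest in I/R 1 and lowest in I/R 3, and the SE of Scn9a was 0.15, against 0.11 in the main fit. The part of gene length in this scaling was not tested. Of 8 genes of non-peptidergic nociceptors, 0 were called, 7 lay below 0 (median -0.27) and 5 had an unadjusted p under 0.05, against 10.5% of all tested genes. Their sum was 1090 to 1288 CPM in I/R and 1261 to 1412 CPM in sham. The 6 peptidergic genes, of which Adcyap1 was called higher, summed to 1539 to 1690 CPM in I/R and 1565 to 1632 CPM in sham, and 8 genes of large neurons to 4202 to 4525 CPM in I/R and 3908 to 4463 CPM in sham. The 9 axon injury genes summed to 686 to 917 CPM in I/R and 350.0 to 369 CPM in sham, and 7 of them were called higher, against 0.722% of all tested genes. Among markers of other cell types, 6 of 7 fibroblast and meningeal genes and 5 of 5 red cell genes were called lower, against 0.428% of all tested genes, with 1 of 5 satellite glia genes lower, 1 of 5 macrophage genes higher and 0 of 6 Schwann cell genes called. Of the 10 skeletal muscle genes, edgeR called 1, DESeq2 10 and limma-voom 0, and all 10 lay below 0 in the edgeR fit. The sum of 7 fibroblast and meningeal genes was 348 to 411 CPM in I/R and 679 to 824 CPM in sham, that of 6 Schwann cell genes was 4609 to 5083 CPM in I/R and 5290 to 5382 CPM in sham, and that of 5 red cell genes was 52.8 to 86.6 CPM in I/R and 181 to 271 CPM in sham. These 3 sums did not overlap between groups, where the values of 17.1% of single tested genes did not overlap. Sums overlapped for satellite glia, oligodendrocyte and endothelial genes. The 5 macrophage genes summed to 28.7 to 30.3 CPM in I/R and 22.7 to 25.8 CPM in sham, with no overlap. Of these genes, Cd163 and Cd68 lay higher in every I/R library. Csf1r, Adgre1 and Aif1 overlapped between the groups, with Aif1 below 0 on the log2 scale. Skeletal muscle sums also did not overlap between the groups, at 14.6 CPM at most in I/R and 17.5 CPM at least in sham. The oligodendrocyte sum was mostly Cnp and Mag, which Schwann cells also express. Mobp, a myelin gene of oligodendrocytes, stood at 1.68, 3.53 and 2.83 CPM in I/R 1 to 3, against 18.7, 3.20 and 12.7 CPM in sham 1 to 3. Opalin was at 0 in 4 libraries and Mog in 3, and their counts lay almost only in sham 1 and sham 3, the libraries that were high for muscle genes. Against sham 2 alone, the log2 fold change was 0.35 for Scn9a, -0.25 for Scn2b and 0.23 for Scn3a. It was -0.35 for Scn11a and -0.34 for Scn10a. The part of these cell types in the sodium channel values was not tested.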

How the data were processed

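The authors deposited 1 table of estimated read counts (expected counts) per Ensembl gene and library, not scaled to library size, with 10.7% to 11.5% of values per library not whole. Read trimming, alignment and assembly tools (fastp, HISAT2, StringTie) and the build GRCm39 come from the submitters' processing notes. The program behind the counts, its strand setting and its annotation are not given in those notes or labels. Per the labels' protocols, libraries were made from TRIzol-extracted RNA with a stranded mRNA kit. The deposited gene length, in bases, whose derivation is not given, served for levels per length. Scn1a, Scn3a, Scn9a, Scn8a and Scn10a hold values that are not whole, in 22 of their library values, so reads they share with related genes may have been split.

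Counts were rounded and tested over 16346 genes with edgeR 4.0.16 in R 4.3.3 (quasi-likelihood, TMM, the package's filter, Benjamini-Hochberg adjustment). The main design, 3 I/R against 3 sham libraries without a block, provided for rounding of estimated counts. CPM use TMM-scaled library sizes, and each SE is the size of a log2 fold change over the root of its F value. The p-values set the difference between groups against the spread between these libraries, which edgeR moderates over genes. Libraries of a group differed by more than sampling noise (chi-square per degree of freedom 4.05 to 27.9). A count of 3, the most that a 0 allows, equals 0.137 to 0.154 CPM, a limit of counting error only. Alternatives were RLE, upper-quartile and neuron-wide scaling, DESeq2 1.42.0, voom of limma 3.58.1, robust dispersion, other filters, a replicate block, a muscle covariate, sham 2 alone and leaving out each library. Removal of the length trend was added after seeing the data. Members and lists were chosen with earlier results of these data known. All 9 members are named, with 3 other subunits (further ones are not reported here) and, of each pathway list, called members or the 2 of smallest p.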

Additional observations from a re-analysis of the deposited data

How the results depend on the processing

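Under 18 alternatives, 0 of the 9 members were called in each fit. Of 162 member values, 143 kept the sign of their main value and 19 did not, all of them within 0.08 of 0 on the log2 scale. Scn1a, Scn3a, Scn9a, Scn11a and Scn2b kept their sign throughout, with ranges of 0.05 to 0.18, 0.17 to 0.64, 0.20 to 0.40, -0.35 to -0.10 and -0.36 to -0.21. The lowest adjusted p of any member was 0.0896 in edgeR's test, for Scn2b with the length trend removed. The highest for Scn2b in edgeR's test was 1.00, with the muscle covariate, where every member had that value. Muscle sums did not overlap between the groups, so that fit cannot well separate the muscle level from the group. With it, Scn2b stood at -0.21 ± 0.17, against -0.31 ± 0.09 in the main fit. Scn4b turned to -0.0043 with RLE, -0.0065 with upper-quartile and -0.052 with neuron-wide scaling, to -0.0043 in DESeq2, -0.0012 without a filter, -0.014 with a CPM of at least 1 in 3 libraries and -0.023 with the length trend removed. Scn8a turned to -0.062 against sham 2 alone and -0.0060 with the length trend removed, and Scn3b to 0.027 with the muscle covariate. Leaving out 1 library gave ranges of -0.025 to 0.028 for Scn4b, -0.023 to 0.16 for Scn8a, -0.13 to 0.077 for Scn3b and -0.25 to 0.025 for Scn10a.

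The count of all called genes was 188, and 312 in DESeq2, 494 without a filter, 24 with the muscle covariate, 32 against sham 2 alone, 288 with the length trend removed and 87 to 181 when 1 library was left out. It was 87 without I/R 2, 98 without I/R 3 and 93 without sham 1. Calls higher in I/R made up 62.8%, and 49.3% with neuron-wide scaling. The cause of these differences was not tested.

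With the replicate number as a block, 0 members and 63 genes were called. Nothing in the labels pairs the numbers, and same-numbered libraries had deviations correlated at -0.106, 0.135 and -0.123, with I/R 1 closest to sham 3 (0.277). Of 42 values for the difference in an alpha subunit's share, 41 moved by less than 1 SD of the same libraries. Leaving out a library cannot move a difference by that much, so only values without division by length could have done so. The exception was Scn8a, at 1.01 percentage points without division by length, against 0.68 with it. The Scn10a difference of -0.72 points turned to 0.23 without I/R 1 and to 0.39 without sham 2, and ranged down to -2.42 without sham 3. That of Scn1a was 0.56 points, with 0.31 without I/R 1 and 0.36 without sham 2, and that of Scn11a was -2.40 points, with -1.51 without sham 3.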
